A study of Mus musculus with 6 samples.

Results

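The genes that build and steer the carriers between the endoplasmic reticulum (ER) and the Golgi were followed in islets after a pulse of Sox17. The list named 53 genes of the COPII and COPI coats, their cargo receptors and the Golgi tethers. Of these, 51 had a probe set naming that gene alone, among 19937 such genes on the arrays, and each gene was read from its brightest such probe set. Kdelr2 had no probe set named for it in the annotation used, and Cog8 was named only on a probe set shared with another gene, so neither is reported. RNA of whole islets was read on Affymetrix Mouse Gene arrays, 1 array a sample. The 3 Sox17-GOF samples had tetO-Sox17 together with Ins2-rtTA, so that doxycycline induces the Sox17 transgene, and the 3 control samples had, by their labels, Ins2-rtTA without tetO-Sox17. The study gives tetO-Sox17 mice as controls in another experiment of this model, so that both groups shared rtTA rests on the labels. All 6 came from 16-week-old male mice, first outbred and then crossed to C57BL/6 for at least 3 generations, and all received doxycycline in food and water for 24 hours before their islets were purified. The Ins2 promoter drives rtTA in insulin-producing cells, while the arrays read every cell of the islet preparation, exocrine cells included. The methods call the samples independent biological triplicates. The comparison asks whether a short rise in SOX17 was accompanied by different transcript levels of the machinery that moves proinsulin.

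COPII coats form at ER exit sites. The GTPase SAR1 recruits the inner layer of SEC23 and SEC24, which binds cargo, and SEC13 and SEC31 close the outer cage. COPI coats, recruited by ARF GTPases, carry escaped ER proteins and receptors back and act within the Golgi stack. Tethers then catch the arriving carriers. Long coiled-coil golgins reach out from the Golgi rim, and the COG complex, made of lobe A and lobe B, acts on retrograde carriers that recycle Golgi enzymes. In β cells proinsulin leaves the ER through this route and crosses the Golgi before it is packed into granules.

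Sox17 itself had log2 levels of 6.35, 6.22 and 6.36 in Sox17-GOF islets, against 5.50, 5.72 and 5.71 in control islets, and passed the test (difference 0.67, standard error 0.09, adjusted p = 0.00876 from limma). An exact two-sided permutation test gave p = 0.10, the smallest that 3 samples against 3 allow. Array medians lay between 6.31 and 6.41. Sox17-GOF replicate 3 stood apart from the other Sox17-GOF arrays on the second principal component, which held 19.8% of the variance, so the medians, and each named difference that it moved by over 1.5 times or turned in sign, are also given without it. All 9 β cell markers lay above the low end of the signals (the 20th percentile of all values), and their mean log2 level was 10.59 to 10.70 in Sox17-GOF and 11.09 to 11.10 in control islets, with 5 of the 9 lower by the test. The 7 measured acinar markers were bright throughout. Their mean was 12.41, 13.13 and 13.35 on Sox17-GOF replicates 1, 2 and 3, and 12.94 to 13.19 in control islets. All 7 were below every control array on Sox17-GOF replicate 1 and above every control array on Sox17-GOF replicate 3, and 0 of 7 passed the test. The 7 stromal markers were likewise all above every control array on Sox17-GOF replicate 3, with means of 6.66, 7.19 and 7.31 on Sox17-GOF replicates 1, 2 and 3, and 6.29 to 6.77 in control islets. Of 4 measured duct markers 3 were above every control array on Sox17-GOF replicate 3. Krt19 had 9.13 there, against 6.16 to 6.53 in control islets. Krt7, the brightest of the 4, lay below every control array there (10.08, against 10.54 to 10.62). The means of the 4 were 7.12, 7.32 and 7.91 on replicates 1, 2 and 3, and 7.06 to 7.16 in control islets. The part of these cell types in the values below was not tested.

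Most of the machinery did not pass the test, and the genes that did were lower. Of the 51 measured genes, 3 fell in Sox17-GOF islets (5.88%), against 2.44% of all genes, and 0 rose, against 2.77% of all genes. The test was limma's, with p-values adjusted by the Benjamini-Hochberg method over all probe sets with a gene symbol and a threshold of 0.05. The 3 were Mia2, a cargo-loading factor of ER exit sites, Cog1, a lobe A subunit of the COG complex, and Golgb1, the golgin giantin. The differences of the group leaned to the low side. The median log2 difference, Sox17-GOF minus control, was -0.17 over the 51 genes and -0.01 over all genes, and 37 of 51 (72.5%) lay below 0, against 52.9% of all genes. All Sox17-GOF arrays lay below all control arrays for 21 of 51 (41.2%), against 14.2% of all genes, and above them for 4 (7.84%), against 11.3% of all genes. At an unadjusted p under 0.05 the counts were 17 lower (33.3%, against 10.7% of all genes) and 3 higher (5.88%, against 8.93%). Strong signals bear on these shares. Over the brightest 20% of genes, where 41 of the 51 lay, 5.64% fell and 4.01% rose, so the share that fell was close to that of other bright genes. Of these bright genes 62.6% lay below 0, 27.7% lacked overlap on the low side, and 22.5% were lower at an unadjusted p under 0.05. None of the 3 calls was kept when all probe sets were tested (adjusted p = 0.0626 for Mia2, 0.0629 for Cog1 and 0.0797 for Golgb1) or in the methods' t-test after adjustment (0.127, 0.142 and 0.174). In whole islets, fewer cells of a type and less RNA per cell cannot be told apart.

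The sizes were small. The lowest difference was -0.59 (Golgb1) and the highest 0.40 (Kdelr3). For 39 of the 51 genes the 95% interval of the difference stayed within 1.5-fold in either direction, and for 50 it stayed within 2-fold. These transcripts gave strong signals, with a median log2 level of 9.78 against 6.70 over all genes. Over the brightest 20% of genes the median difference was -0.07. The signal of a probe set also depends on its probes, so levels were not compared between genes.

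**Figure D1:**
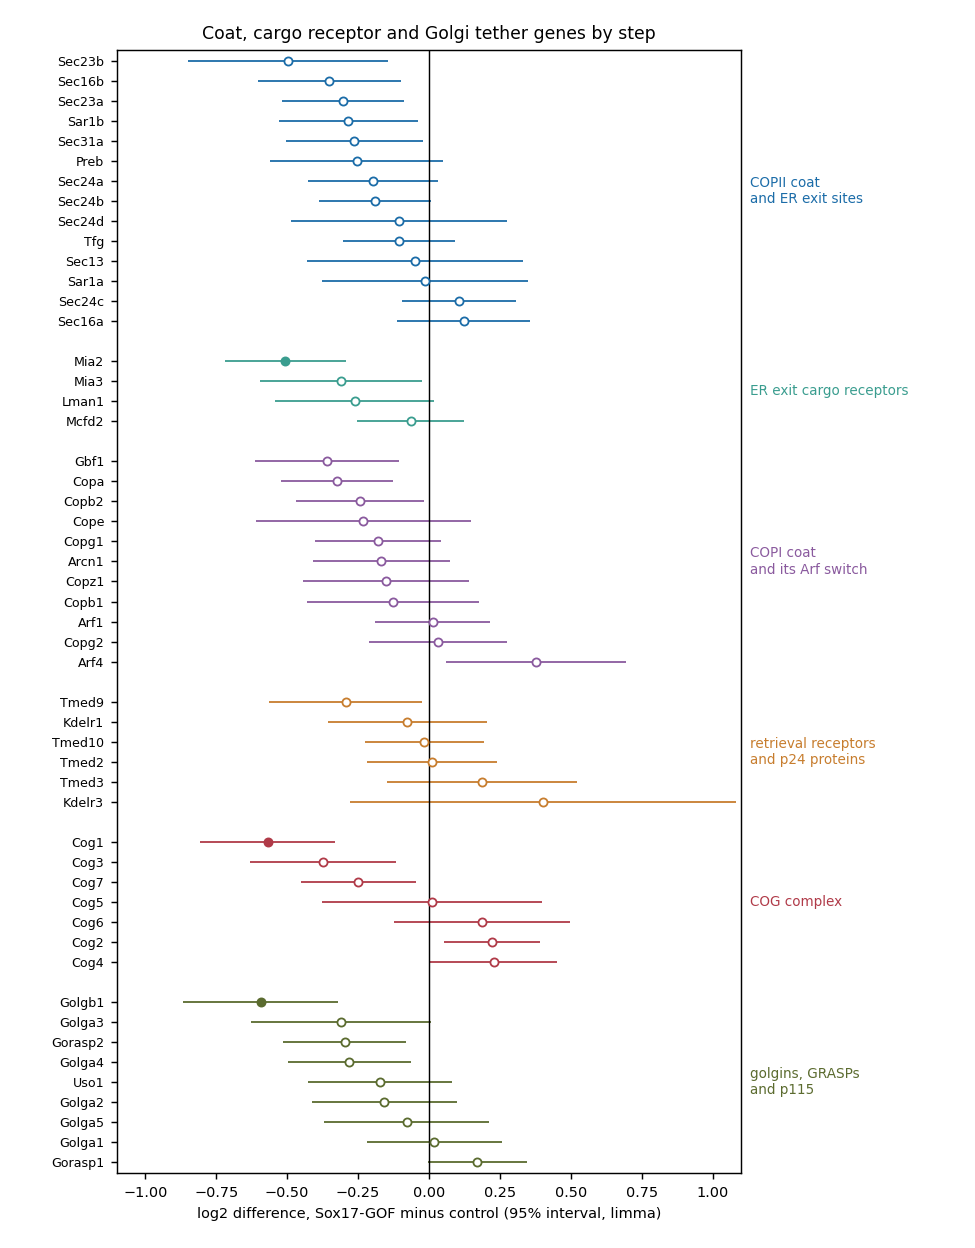
Log2 difference, Sox17-GOF minus control islets (3 arrays each), of the 51 measured genes, grouped by step of the pathway, with 95% intervals from limma. Filled points (Mia2, Cog1 and Golgb1) had an adjusted p under 0.05, and 37 of the 51 points lie below 0.

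Much of the low side came from 1 array. Relative to the mean of the control arrays, the median deviation over the 51 genes was -0.07, -0.06 and -0.34 on Sox17-GOF replicates 1, 2 and 3, and 0.04, -0.02 and -0.03 on control replicates 1, 2 and 3. Sox17-GOF replicate 3 was thus the low array, while the medians of replicates 1 and 2 sat close to those of the controls. It was the lowest Sox17-GOF array for 43 of the 51 genes (84.3%), against 38% of all genes and 57.9% of the brightest 20%. It lay below every control array for 39 (76.5%), against 34.7% of all genes and 55.9% of the brightest 20%. Replicates 1 and 2 lay below every control array for 25 (49%) and 23 (45.1%). These shares were 30.8% and 33.8% of all genes, and 38.4% and 45% of the brightest 20%. The median difference without replicate 3 was -0.06, against -0.22 without replicate 1 and -0.19 without replicate 2. Without replicate 3, 32 of the 51 differences moved by over 1.5 times or turned in sign, 7 of them in sign. Differences near 0, such as that of Arf1 (0.01, and 0.03 without replicate 3), meet this rule with small shifts. The same count over all genes was not made. Replicate 3 lay below the mean of replicates 1 and 2 by a median of 0.24 over the 51 genes (difference -0.24). This median was -0.10 over the brightest 20% of genes, -0.01 over all genes and 0.00 over the 9 β cell markers. It lay below that mean for 46 of the 51 genes (90.2%), against 73.1% of the brightest 20% and 53.2% of all genes. On this array the acinar and stromal markers and 3 of 4 duct markers were high, as given above. The means on Sox17-GOF replicates 2 and 3 were 13.13 and 13.35 for acinar, 7.19 and 7.31 for stromal, and 7.32 and 7.91 for duct markers. The part of these cells in the low coat transcripts was not tested. Without Sox17-GOF replicate 3 Mia2 and Cog1 kept their calls, with differences of -0.43 and -0.61 (adjusted p = 0.0403 and 0.0348). Golgb1 kept most of its difference (-0.53) but not its call (adjusted p = 0.0743), in a fit with fewer samples.

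**Figure D2:**
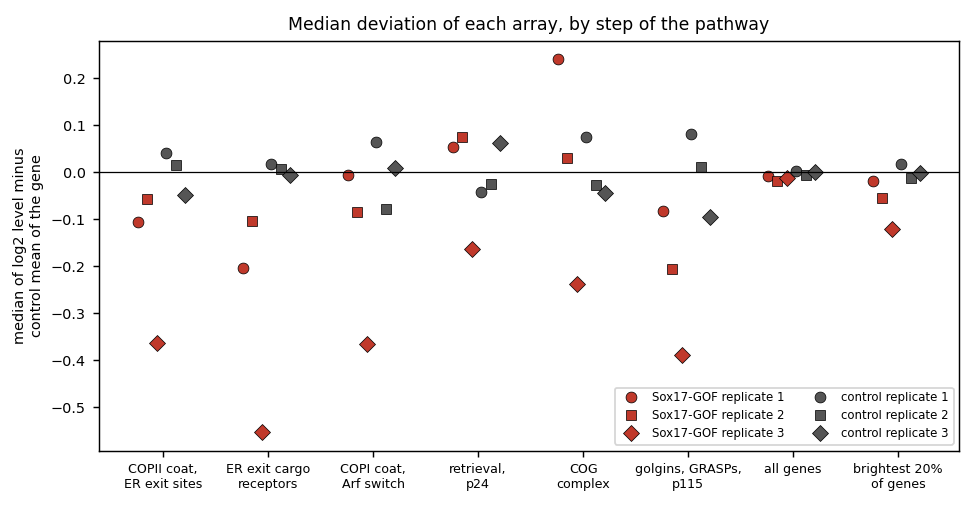
Median deviation of each array from the control mean, in log2 units, over the measured genes of each step, over all genes and over the brightest 20% of genes (Sox17-GOF arrays left of control arrays). Sox17-GOF replicate 3 is the lowest array in each of the 6 steps, at -0.55 for ER exit cargo receptors and -0.16 for retrieval receptors and p24 proteins, the ends of its range over the steps.

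At ER exit sites, none of the 14 measured COPII genes passed the test (0 lower, 0 higher). Of these, 12 had negative differences and 6 showed no overlap, all on the low side. Over all genes 52.9% were negative and 14.2% lacked overlap on the low side, and over the brightest 20% of genes 62.6% and 27.7%. The median difference of the 14 genes was -0.19, and -0.13 without Sox17-GOF replicate 3. Sec23b is one of a pair of inner coat paralogs that stimulate the GTPase activity of SAR1. It had log2 levels of 10.26, 9.99 and 9.69 in Sox17-GOF islets, against 10.65, 10.43 and 10.35 in control islets. The groups did not overlap, but the Sox17-GOF arrays were spread over more than the distance between the nearest arrays of each group (difference -0.50, standard error 0.15, adjusted p = 0.121 from limma). Its paralog Sec23a had 7.77, 7.79 and 7.96 in Sox17-GOF islets, against 8.25, 8.03 and 8.15 in control islets. Here Sox17-GOF replicate 3 was the highest of its group and the groups again did not overlap (difference -0.30, standard error 0.09, adjusted p = 0.123).

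The 4 SEC24 paralogs, which read the sorting signals of different cargo, did not share a direction. Sec24a and Sec24b had differences of -0.20 and -0.19 (standard errors 0.10 and 0.09), Sec24d had -0.11 (0.16) and Sec24c had 0.11 (0.09). Sec24b alone of the 4 lacked overlap, and the sign of Sec24d turned without Sox17-GOF replicate 3 (0.08). Of the SAR1 paralogs, which start coat assembly, Sar1b had 11.61, 11.67 and 11.32 in Sox17-GOF islets, against 11.86, 11.84 and 11.76 in control islets (difference -0.28, standard error 0.11, adjusted p = 0.197). The groups of Sar1b did not overlap. For Sar1a the groups overlapped, with 11.08, 11.26 and 10.62 in Sox17-GOF islets, against 11.00, 10.97 and 11.04 in control islets. Replicates 1 and 2 were above the controls and replicate 3 below them, so its difference of -0.01 became 0.17 without replicate 3, while that of Sar1b became -0.18 and that of Sec24c 0.16.

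The SEC16 scaffolds, which organize exit sites, also had differences of both signs. Sec16b had 6.95, 7.19 and 6.83 in Sox17-GOF islets, against 7.25, 7.42 and 7.36 in control islets, without overlap (difference -0.35, standard error 0.11, adjusted p = 0.124). Sec16a, the longer form, overlapped between the groups (difference 0.12, standard error 0.10, adjusted p = 0.585). The difference between paralogs was not tested. The other exit site genes were the outer coat subunits Sec31a (-0.26, without overlap) and Sec13 (-0.05), Preb (-0.26), which encodes the SAR1 exchange factor SEC12, and Tfg (-0.11), a scaffold that clusters COPII carriers. Leaving out Sox17-GOF replicate 3 gave differences of 0.20 for Sec16a, 0.09 for Sec13, -0.12 for Preb and -0.04 for Tfg.

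Among the cargo receptors of ER exit all 4 differences were negative, with a median of -0.29, and -0.15 without Sox17-GOF replicate 3. Mia2, whose products include the collagen export factor cTAGE5, had log2 levels of 9.82, 9.70 and 9.53 in Sox17-GOF islets, against 10.19, 10.23 and 10.16 in control islets. The control arrays lay within 0.1 of each other and all Sox17-GOF arrays were below them. Mia2 was 1.42-fold lower (difference -0.51, standard error 0.09, limma's adjusted p = 0.0244). This call ended without Sox17-GOF replicate 2 or any 1 control array, with adjusted p up to 0.103.

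Mia3, or TANGO1, is the partner of cTAGE5 that spans the ER membrane and feeds bulky cargo into COPII carriers. It had 10.62, 10.67 and 10.24 in Sox17-GOF islets, against 10.79, 10.80 and 10.88 in control islets. The groups did not overlap, with replicate 3 the lowest array by far (difference -0.31, standard error 0.12, adjusted p = 0.226). Lman1, or ERGIC-53, a mannose lectin that cycles between ER and Golgi, had 11.77, 11.92 and 11.46 in Sox17-GOF islets, against 12.01, 11.92 and 11.998 in control islets, and the highest Sox17-GOF array nearly met the lowest control array (difference -0.26, standard error 0.12, adjusted p = 0.297). Its soluble partner Mcfd2 overlapped between the groups (difference -0.06). Without Sox17-GOF replicate 3 the differences were -0.17 for Mia3, -0.13 for Lman1 and -0.02 for Mcfd2.

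Of the 11 measured COPI genes 0 passed the test in either direction. Their median difference was -0.17, and -0.06 without Sox17-GOF replicate 3. Gbf1, the exchange factor that activates ARF1 at the early Golgi, had log2 levels of 9.999, 9.83 and 9.64 in Sox17-GOF islets, against 10.29, 10.12 and 10.14 in control islets. The groups did not overlap (difference -0.36, standard error 0.11, adjusted p = 0.118 from limma). Copa, the α subunit of the coat, was singled out after its values were seen, because its control arrays were so close together. It had 11.18, 11.15 and 10.96 in Sox17-GOF islets, against 11.43, 11.42 and 11.41 in control islets. All Sox17-GOF arrays were below the controls (difference -0.32, standard error 0.08, adjusted p = 0.0782), and with an intensity trend in the fit Copa passed the test (adjusted p = 0.0466).

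The other coat subunits had intervals that overlapped each other, and differences between subunits were not tested. Copb2, the β′ subunit, had 11.65, 11.59 and 11.34 in Sox17-GOF islets, against 11.81, 11.75 and 11.75 in control islets, without overlap (difference -0.24, standard error 0.10, adjusted p = 0.230). Copb1, the β subunit, overlapped, with only replicate 3 outside the control range (difference -0.13, and 0.02 without that array). The γ subunits, encoded by paralogs, had differences of -0.18 (Copg1, standard error 0.10) and 0.03 (Copg2, standard error 0.10), both with overlap. The remaining coat subunits Cope, Copz1 and Arcn1 overlapped between the groups, with differences of -0.23, -0.15 and -0.17. Leaving out Sox17-GOF replicate 3 gave differences of -0.15 for Copb2, -0.11 for Copg1, 0.09 for Copg2, -0.06 for Cope, -0.04 for Copz1 and -0.08 for Arcn1.

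The highest difference of the 11 genes was that of Arf4, an ARF GTPase that acts at the boundary of ER and Golgi. Arf4 had log2 levels of 11.14, 10.97 and 10.61 in Sox17-GOF islets, against 10.61, 10.45 and 10.54 in control islets. Replicates 1 and 2 were high, and replicate 3 was level with the highest control array. The difference was 0.38 (standard error 0.14, adjusted p = 0.189 from limma). Without replicate 3 Arf4 passed the test, with a difference of 0.53 (adjusted p = 0.0325), and was then the only one of the 51 genes to rise. Arf1, the main recruiter of COPI, overlapped between the groups (difference 0.01, 95% interval -0.19 to 0.22, and 0.03 without replicate 3), and a dimmer probe set of Arf1 gave -0.14. Among the neighbouring genes described further on, Arf3 had -0.16, without overlap, and Arf5 had 0.24, with overlap, and neither passed.

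**Figure D3:**
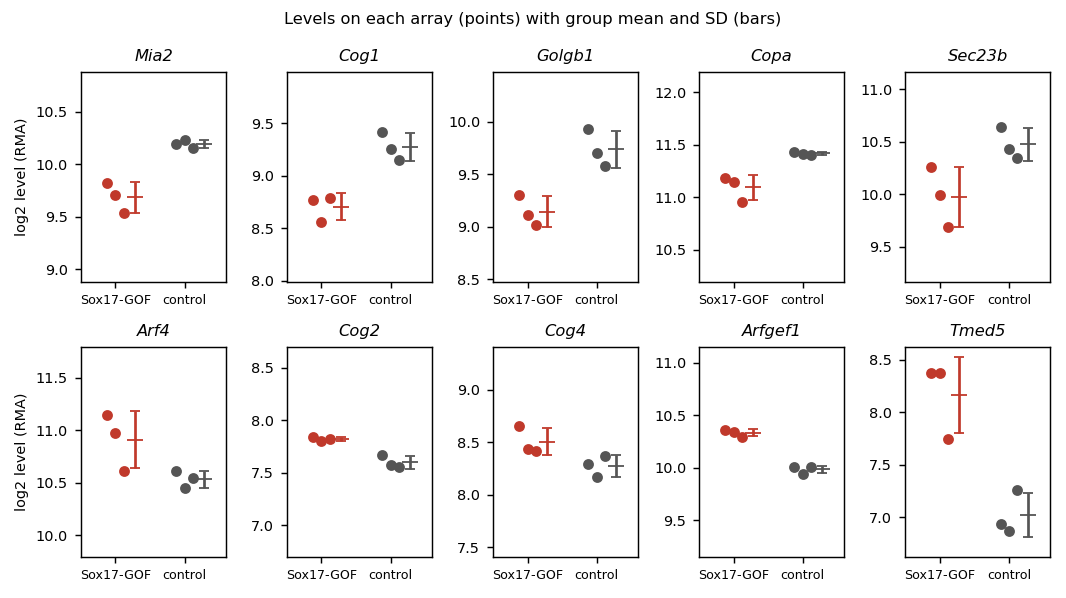
Log2 level on each array (points) of 10 genes of the early secretory pathway, with the mean and SD of each group, Sox17-GOF left of control islets (3 arrays each). Mia2, Cog1 and Golgb1 lie lower and Arfgef1 and Tmed5 higher on every Sox17-GOF array with an adjusted p under 0.05, whereas Copa, Sec23b, Arf4, Cog2 and Cog4 lack overlap but did not pass the test.

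Retrieval receptors and p24 proteins showed no common direction. Of 6 measured genes 0 passed the test, 3 differences were negative and 3 positive, and the median was 0.00 (0.04 without Sox17-GOF replicate 3). The KDEL receptors return escaped ER residents. Kdelr1 overlapped between the groups (difference -0.08, standard error 0.12). Kdelr3 had 6.42, 7.30 and 6.00 in Sox17-GOF islets, against 6.00, 6.22 and 6.29 in control islets. One array, Sox17-GOF replicate 2, was high and set its difference of 0.40 (standard error 0.29, adjusted p = 0.530 from limma), the least precise of the 51. Without Sox17-GOF replicate 2 the difference of Kdelr3 was 0.04. Without Sox17-GOF replicate 3 the differences were 0.04 for Kdelr1 and 0.69 for Kdelr3.

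The p24 proteins are cargo receptors found in both COPII and COPI carriers. Tmed9 had 10.32, 10.36 and 9.96 in Sox17-GOF islets, against 10.49, 10.48 and 10.56 in control islets, without overlap (difference -0.29, standard error 0.12, adjusted p = 0.226). Tmed3 had 11.73, 11.73 and 11.22 in Sox17-GOF islets, against 11.40, 11.31 and 11.41 in control islets. Its replicates 1 and 2 were above all controls and replicate 3 below them (difference 0.19, standard error 0.14, adjusted p = 0.556). Tmed2 and Tmed10 had differences of 0.01 and -0.02 (standard errors 0.10 and 0.09). Their other probe sets gave -0.08 and -0.36 for Tmed2 and -0.09 for Tmed10, none past the threshold, so the sign for Tmed2 depended on the probe set. Leaving out Sox17-GOF replicate 3 gave differences of -0.17 for Tmed9, 0.36 for Tmed3, -0.06 for Tmed2 and 0.05 for Tmed10.

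The subunits of the COG complex lay on both sides. Of 7 measured subunits 1 fell, 0 rose and 6 did not pass the test, and the median difference was 0.01 (0.14 without Sox17-GOF replicate 3). Overlap was lacking for 3 subunits on the low side and 2 on the high side. Over all genes 2.44% fell, and 14.2% and 11.3% lacked overlap on the low and high side. Over the brightest 20% of genes these shares were 5.64%, 27.7% and 12.9%. Cog1 had log2 levels of 8.77, 8.56 and 8.79 in Sox17-GOF islets, against 9.42, 9.25 and 9.15 in control islets. Sox17-GOF replicate 3 was the highest array of its group, so this decrease did not follow the low side of that array. Cog1 was 1.48-fold lower (difference -0.57, standard error 0.10, adjusted p = 0.0238 from limma). The call ended without Sox17-GOF replicate 2 or without control replicate 1 or 2, with adjusted p up to 0.0895.

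Cog3, another lobe A subunit, had 8.70, 8.80 and 8.85 in Sox17-GOF islets, against 9.17, 9.34 and 8.95 in control islets. The groups did not overlap (difference -0.37, standard error 0.11, adjusted p = 0.112). Cog2 and Cog4, the other lobe A subunits, and Cog7 of lobe B were singled out after their values were seen. Cog2 had 7.84, 7.80 and 7.82 in Sox17-GOF islets, against 7.67, 7.57 and 7.56 in control islets. All Sox17-GOF arrays agreed closely and lay above the controls (difference 0.22, standard error 0.07, adjusted p = 0.144). Cog4 lacked overlap on the same side, with 8.65, 8.44 and 8.42 in Sox17-GOF islets, against 8.29, 8.17 and 8.37 in control islets (difference 0.23, standard error 0.10, adjusted p = 0.257). Cog7 lay on the low side without overlap (difference -0.25, standard error 0.09, adjusted p = 0.175).

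The lobe A genes thus held negative differences (Cog1 and Cog3) and positive ones (Cog2 and Cog4), each without overlap, of which Cog1 alone passed the test. Of the other lobe B genes, Cog6 had 10.103, 10.13 and 9.66 in Sox17-GOF islets, against 9.86, 9.70 and 9.77 in control islets. Replicates 1 and 2 were above the controls and replicate 3 below them (difference 0.19, standard error 0.13, adjusted p = 0.523). Cog5 overlapped throughout (difference 0.01, standard error 0.17). Without Sox17-GOF replicate 3 the differences were 0.34 for Cog6 and 0.14 for Cog5. Differences between subunits were not tested.

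**Figure D4:**
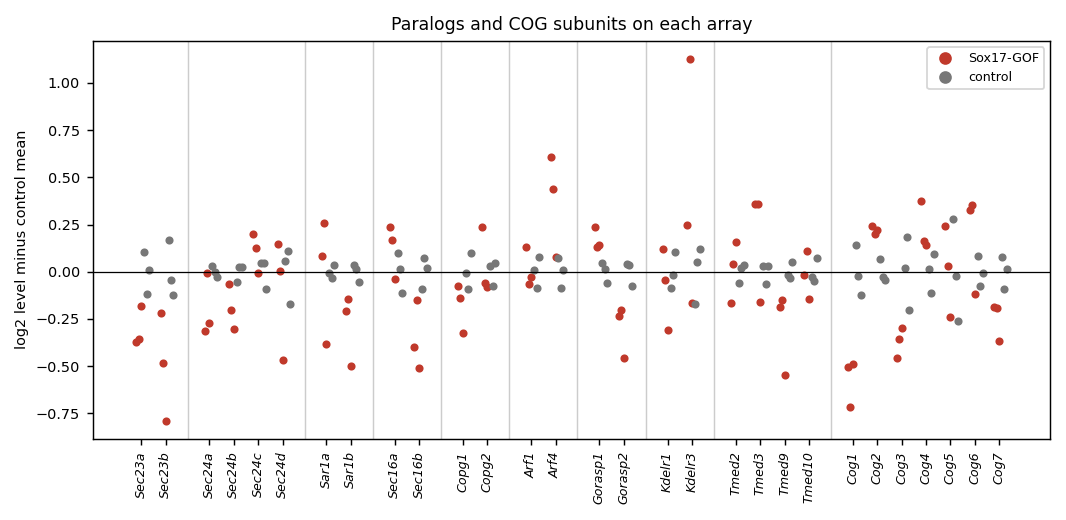
Log2 deviation of each array from the gene's control mean for paralog sets of coat, receptor and tether genes and for the COG subunits (Sox17-GOF arrays left of control arrays). Cog1 and Cog3 lie below 0 and Cog2 and Cog4 above 0 on all 3 Sox17-GOF arrays.

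Of 9 measured golgins, GRASPs and p115, 1 fell, 0 rose and 8 did not pass, with 7 negative differences, 5 genes without overlap on the low side and 1 on the high side. Over all genes 52.9% were negative, 14.2% lacked overlap on the low side and 11.3% on the high side. Over the brightest 20% of genes these shares were 62.6%, 27.7% and 12.9%. The median of the 9 genes was -0.17, and -0.08 without Sox17-GOF replicate 3. Golgb1 encodes giantin, a large membrane-anchored golgin of the cisternal rims that binds p115. It had log2 levels of 9.30, 9.11 and 9.02 in Sox17-GOF islets, against 9.93, 9.71 and 9.58 in control islets. All Sox17-GOF arrays lay below all controls, and Golgb1 was 1.51-fold lower (difference -0.59, standard error 0.12, adjusted p = 0.0323 from limma). The call ended without Sox17-GOF replicate 2 or 3 or control replicate 1 or 2, with adjusted p up to 0.110.

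Golga3 had 9.81, 9.68 and 9.37 in Sox17-GOF islets, against 10.12, 9.84 and 9.83 in control islets, where the nearest arrays almost touched (difference -0.31, standard error 0.14, adjusted p = 0.271). The GRASP proteins link and shape the cisternae. Gorasp2 had 10.47, 10.50 and 10.25 in Sox17-GOF islets, against 10.75, 10.74 and 10.63 in control islets (difference -0.30, standard error 0.09, adjusted p = 0.128). Its paralog Gorasp1 lay on the other side, with 7.58, 7.48 and 7.49 in Sox17-GOF islets, against 7.39, 7.36 and 7.29 in control islets (difference 0.17, standard error 0.07, adjusted p = 0.271). Neither GRASP gene overlapped between the groups, and the difference between the paralogs was not tested.

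Uso1 encodes p115, the tether that bridges giantin on carriers and GM130 on the Golgi. It had 11.46, 11.49 and 11.15 in Sox17-GOF islets, against 11.62, 11.49 and 11.50 in control islets, with Sox17-GOF replicate 2 level with the lowest control (difference -0.17, standard error 0.11, adjusted p = 0.458). Golga2, which encodes GM130, overlapped between the groups (difference -0.16, standard error 0.11). The other golgins had differences of -0.28 (Golga4, without overlap), -0.08 (Golga5) and 0.02 (Golga1). Of the binding partners giantin, p115 and GM130, giantin alone passed the test. Without Sox17-GOF replicate 3 the differences were -0.18 for Golga3, -0.06 for Uso1, -0.08 for Golga2, -0.02 for Golga5 and 0.09 for Golga1.

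The neighbouring genes of the pathway were read from 5 further lists with 63 measured genes, of which 0 fell, 2 rose and 61 did not pass. Over all genes 2.44% fell and 2.77% rose, and over the brightest 20% of genes 5.64% fell and 4.01% rose. The share of the 63 that rose was thus close to that of all genes. Their median was -0.08, and -0.03 without Sox17-GOF replicate 3. Arfgef1, which encodes the ARF exchange factor BIG1 of the late Golgi, had log2 levels of 10.36, 10.34 and 10.30 in Sox17-GOF islets, against 10.004, 9.95 and 10.01 in control islets. Both groups were tight and clearly apart, and Arfgef1 was 1.27-fold higher (difference 0.35, standard error 0.07, adjusted p = 0.0339 from limma). Gbf1, the ARF exchange factor of the early Golgi, lay on the other side, as given above, and the difference between these genes was not tested. Tmed5, a p24 protein, had 8.37, 8.37 and 7.74 in Sox17-GOF islets, against 6.94, 6.87 and 7.26 in control islets. Every Sox17-GOF array was above the controls, with replicate 3 the lowest, and Tmed5 was 2.20-fold higher (difference 1.14, standard error 0.19, adjusted p = 0.0171). Arfgef1 lost its call in every set of 5 arrays (adjusted p up to 0.135), and the call of Tmed5 ended without Sox17-GOF replicate 2 or control replicate 1 or 2 (up to 0.0802).

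The 5 lists had medians of -0.05 (11 further COPII and COPI factors), 0.02 (14 further receptors), -0.14 (14 SNAREs and their partners), -0.06 (14 TRAPP subunits) and -0.16 (10 GARP subunits and further golgins). Without Sox17-GOF replicate 3 these medians were -0.03, 0.04, -0.05, 0.02 and -0.12, so that of the TRAPP subunits turned in sign. The largest difference among the SNAREs was that of Use1, a SNARE of retrograde carriers at the ER, with 10.90, 10.62 and 10.74 in Sox17-GOF islets, against 10.44, 10.28 and 10.16 in control islets. It lacked overlap on the high side but did not pass (difference 0.46, standard error 0.11, adjusted p = 0.0561). It passed with an intensity trend, with quantile normalization and with probe sets averaged per gene (0.0444, 0.0402 and 0.0457). Arfgap3, a GTPase-activating protein that helps COPI uncoat, overlapped between the groups at the highest Sox17-GOF and lowest control array (difference -0.49, standard error 0.16, adjusted p = 0.138). Golim4, a Golgi protein that cycles through endosomes, lacked overlap (difference -0.32, adjusted p = 0.0948), and Trappc11, a TRAPP subunit, overlapped (difference -0.21, adjusted p = 0.313).

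Promoter sequences were then read for known elements of secretory stress, since coat genes are textbook targets of such pathways. RefSeq sequence (GRCm38.p6) before an annotated start was available for 47 of the 53 genes and for 27025 genes in all, and the 250 bases before each start were searched on both strands. The core of the unfolded protein response element (TGACGTG) occurred in 8 of 47 genes (17%), against 1.85% of all genes. The Golgi apparatus stress element (ACGTGGC) occurred in 11 (23.4%), against 2.33%. These motifs share letters and coincide in the run TGACGTGGC, and Arf1, Kdelr3, Sec16b and Sec24d held both. The cyclic AMP response element (TGACGTCA) occurred in 1 gene, Cope (2.13%, against 1.77%). The core SOX motif (ACAATG) occurred in 0 of 47, against 12.2% of all genes, and the ER stress elements ERSE (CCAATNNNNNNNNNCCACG) and ERSE-II (ATTGGNCCACG) in 0 of 47, against 0.13% and 0.037%. Within 100 bases of the start the first 2 motifs occurred in 7 (14.9%, against 1.07%) and 6 genes (12.8%, against 1.16%). Genes with several annotated starts had more than 1 stretch searched, and a match marks letters only, not binding. The comparison genes were not matched to the 47 for base composition, so the part of base composition in these shares was not tested.

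Stretches of 100 bases are shown for genes whose values are described above, 5′ to 3′ on the strand of the gene, with the matches in capitals. Those of Sec24d, Sec16b and Kdelr3 hold the shared run, and those of Mia3, Copb1 and Gbf1 the first motif alone. Uso1 and Mia2 hold the Golgi apparatus stress element alone, Uso1 in 2 copies. All end at the base before the start, except that of Mia2, which covers bases 200 to 101 before 1 of its 3 starts.
Sec24d (chr3:123267396-123267495, plus strand): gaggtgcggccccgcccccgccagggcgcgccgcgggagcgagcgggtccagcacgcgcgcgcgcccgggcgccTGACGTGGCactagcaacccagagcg
Sec16b (chr1:157506696-157506795, plus strand): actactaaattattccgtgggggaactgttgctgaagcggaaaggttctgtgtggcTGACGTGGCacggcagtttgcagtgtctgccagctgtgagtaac
Kdelr3 (chr15:79516308-79516407, plus strand): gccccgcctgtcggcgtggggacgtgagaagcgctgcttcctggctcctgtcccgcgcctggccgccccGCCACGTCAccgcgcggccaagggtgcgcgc
Mia3 (chr1:183369566-183369665, minus strand): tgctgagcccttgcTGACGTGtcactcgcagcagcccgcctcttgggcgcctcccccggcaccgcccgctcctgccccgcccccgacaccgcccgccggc
Copb1 (chr7:114254681-114254780, minus strand): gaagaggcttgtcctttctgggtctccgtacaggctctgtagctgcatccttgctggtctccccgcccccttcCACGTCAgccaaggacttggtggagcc
Gbf1 (chr19:46152458-46152557, plus strand): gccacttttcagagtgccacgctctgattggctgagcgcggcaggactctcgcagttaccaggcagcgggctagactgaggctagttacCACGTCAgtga
Uso1 (chr5:92137838-92137937, plus strand): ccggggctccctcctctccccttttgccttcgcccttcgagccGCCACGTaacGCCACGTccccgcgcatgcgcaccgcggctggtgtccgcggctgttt
Mia2 (chr12:59131281-59131380, plus strand): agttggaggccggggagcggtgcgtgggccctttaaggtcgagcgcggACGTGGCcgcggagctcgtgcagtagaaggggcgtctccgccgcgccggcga
For comparison, Cog1, which fell, and Arf4, which had the highest difference among the COPI genes, had no match to any of these motifs in the searched bases.
Cog1 (chr11:113649429-113649528, plus strand): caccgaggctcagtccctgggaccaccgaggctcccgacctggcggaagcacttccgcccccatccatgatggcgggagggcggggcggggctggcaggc
Arf4 (chr14:26638034-26638133, plus strand): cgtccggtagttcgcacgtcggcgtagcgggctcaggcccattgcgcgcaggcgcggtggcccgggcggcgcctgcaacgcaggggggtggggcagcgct

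For the unfolded protein response core and the Golgi apparatus stress element, genes with the motif lay on both sides of 0. So did genes without it, and the difference between these groups was not tested. The 8 with the unfolded protein response core had a median difference of -0.12, from -0.36 (Gbf1) to 0.40 (Kdelr3), and 0 of 8 passed the test. The 38 measured genes without it had a median of -0.17, from -0.57 to 0.38. The 11 with the Golgi apparatus stress element had a median of -0.06, and 1 of them, Mia2, fell, while the 35 measured genes without it had a median of -0.18. Of the 4 genes with both, Sec16b lay at -0.35, Sec24d at -0.11, Arf1 at 0.01 and Kdelr3 at 0.40. Golgb1 had no promoter entry and is left out of these counts. The medians of these motif groups were not read without Sox17-GOF replicate 3.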

How the data were processed

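RNA of whole islets from 3 Sox17-GOF and 3 control samples was amplified with NuGEN kits and hybridized to Affymetrix arrays. The authors had processed the deposited log2 values by RMA (background correction, a common intensity distribution for all arrays, and a summary per probe set), in GeneSpring by the methods and in Affymetrix Expression Console by the submitters' processing notes. The program is not settled here. Genotypes follow the sample labels. The values were used as deposited.

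The 2 groups were fitted by lmFit and eBayes of limma 3.58.1 (R 4.3.3, two-sided tests), with Benjamini-Hochberg adjustment over the 22961 of 34760 probe sets with a symbol. A gene is its brightest single-symbol probe set. Members, lists and tests were chosen with earlier results of these data known. Genes named are those past the threshold, the 2 largest differences and the brightest gene of each step, paralog sets, and, of neighbouring genes, those past the threshold and the largest difference of each list. Other members are given briefly with their step, and those singled out beyond the rule are marked. Precision is limited by the number of arrays, and values near 4.63, the 20th percentile, lie near background. Alternatives were array weights, an intensity trend, quantile normalization, median centring, testing all probe sets, dropping dim ones, averaging probe sets per gene, the replicate block, the methods' t-test, and 5 of the 6 arrays. Promoters came from RefSeq.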

Additional observations from a re-analysis of the deposited data

How the results depend on the processing

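Under the alternatives the median of the 51 genes stayed negative (-0.17 to -0.13, and -0.22 to -0.06 with 1 array left out). Counts of calls moved more. Changed probe sets numbered 1133, against 558 when all probe sets were tested, 720 with the replicate block, 71 with the methods' t-test after Benjamini-Hochberg adjustment (1623 at the methods' own 1.3-fold and unadjusted p, where limma gave 2057) and 385 to 1020 with 1 array left out. Genes of the list that fell numbered 4 with an intensity trend, 1 with the replicate block (Golgb1, while Mia2 had an adjusted p = 0.0521 and Cog1 0.0509), 0 with all probe sets and with the t-test, and 0 to 3 with 1 array left out, where 0 to 1 rose. Neighbouring genes that rose numbered 5 with quantile normalization, 4 with an intensity trend, 3 with array weights and with probe sets averaged per gene, 1 with median centring, 0 with all probe sets, the block and the t-test, and 0 to 2 with 1 array left out, where 0 to 1 fell. Deviations of same-numbered arrays of the 2 groups correlated at 0.05, -0.02 and -0.04. Such correlations cannot tell whether same-numbered samples were paired in the experiment. Sox17 kept its difference of 0.67 but not its call in the t-test (adjusted p = 0.0906).

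Signs near 0 turned. The median of retrieval receptors and p24 proteins was 0.0157 with array weights, 0.0011 with quantile normalization and -0.0423 to 0.0431 with 1 array left out, and that of COG subunits -0.12 to 0.15. Sar1a was 0.062 with array weights and 0.0451 with quantile normalization (-0.151 to 0.171 with 1 array left out), Tmed10 0.021 with array weights (-0.0802 to 0.047), and Tmed2 -0.14 with the mean of its probe sets (-0.0613 to 0.0992). With 1 array left out Copb1 ranged from -0.215 to 0.0162, Copg2 from -0.0703 to 0.0892, Kdelr1 from -0.176 to 0.0392 and Sec24d from -0.232 to 0.0755. The cause was not tested.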
